A study of Mus musculus with 15 samples.

Results

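CD103-CD11b+ dendritic cells (DCs) of the small intestine were compared with CD103+CD11b- DCs of the same tissue, gene by gene, on microarrays. The arrays were taken by their labelled surface phenotype, with no measured value in the rule, and made up 6 of the 15 arrays of the series, 3 for each population. Differences are given on the log2 scale as CD103-CD11b+ minus CD103+CD11b-, so that a positive value is a higher signal in CD103-CD11b+ DCs and a difference of 1 is a doubling.

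DCs take up antigen and present it to T cells, and the intestinal lamina propria (LP) holds several kinds of them. Conventional type 1 DCs (cDC1) depend on the transcription factors IRF8 and BATF3, express the chemokine receptor XCR1 and are known for presenting the antigens of dead cells to CD8 T cells. Conventional type 2 DCs (cDC2) depend on IRF4, express SIRPα and many C-type lectins, and are known for priming helper T cells. In the mouse small intestine the CD103+CD11b- population is the cDC1 of the tissue, whereas CD11b+ DCs are assigned to cDC2 and share surface molecules with macrophages.

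All cells came from WT C57BL/6 mice at steady state, given no treatment and carrying no transgene. The mice of the study were 6–12 weeks old and of both sexes, and no sex was given for single arrays. Populations were sorted as CD11c+MHCII+CD64- cells from LP from which Peyer's patches, fat and epithelium had been taken away, and were split by CD103 and CD11b, with CD103+CD11b+ DCs (3 arrays), CD103-CD11b- DCs (3 arrays) and CD64+ macrophages (mφ, 3 arrays) taken alongside. The replicates were described as biological samples with no number of mice for each, so p-values measure only the spread between these samples, and the number of arrays limits their precision.

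The arrays gave a value for 19938 genes. Replicate arrays correlated across all genes with r of 0.9915 to 0.9922 in CD103-CD11b+ DCs and 0.99 to 0.9935 in CD103+CD11b- DCs. Pancreatic acinar genes, which no DC is known to express, stood apart on CD103-CD11b+ replicate 3 (mean log2 signal 7.25 over 17 genes, with 4.86 and 4.94 on replicates 1 and 2) and on CD103+CD11b- replicate 2 (8.49, with 4.95 and 5.32 on replicates 1 and 3). Leaving both arrays out left 373 genes higher and 270 lower, against 403 and 259 with them.

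The genes behind the sort followed the labels. Itgam, which encodes CD11b, gave log2 signals of 9.51, 9.55 and 9.54 in CD103-CD11b+ DCs and 4.76, 5.05 and 4.99 in CD103+CD11b- DCs. It had the largest positive difference of all genes, 4.60 ± 0.10 (SE), or 24.3-fold. Itgae, which encodes CD103, gave 8.32, 7.54 and 7.66 in CD103-CD11b+ DCs and 10.96, 10.86 and 10.87 in CD103+CD11b- DCs. Since both molecules chose the cells, these differences describe the sort.

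The threshold was an adjusted p under 0.01 (limma, Benjamini-Hochberg) together with a log2 difference over 1 in size, and genes that met both are said to have passed. By this rule 403 genes (2.02% of those tested) were higher in CD103-CD11b+ DCs and 259 (1.30%) were lower, together 662 genes (3.32%). None of the 662 had overlapping arrays between the populations, which follows largely from the threshold with 3 arrays each. Genes that did not pass could be free of overlap too, so the lack of overlap is no further evidence. Their median difference was 1.56 among the higher genes and -1.39 among the lower ones, with a median of 0.04 over all genes. Differences over 3 in size were found for 36 higher and 20 lower genes.

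**Figure D1:**
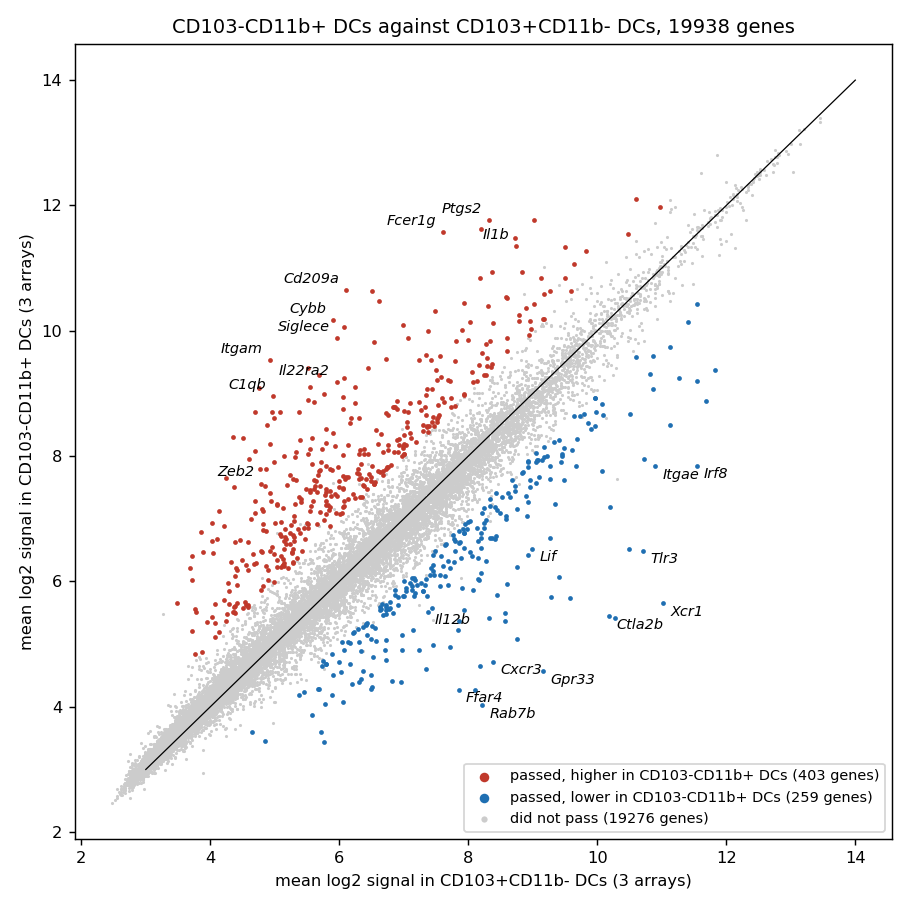
Mean log2 signal of each of 19938 genes in CD103-CD11b+ DCs (vertical axis, 3 arrays) against CD103+CD11b- DCs (horizontal axis, 3 arrays), with the line of equal signal. The 403 higher genes (red) lie above the line, with Itgam and Cd209a farthest from it, and the 259 lower genes (blue) lie below it, with Xcr1 farthest; grey genes did not pass.

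Many of the genes with the largest differences below 0 were cDC1 genes. Of 18 measured cDC1 markers, 16 passed as lower and none as higher (1.30% and 2.02% of all genes), with a median difference of -3.44. Xcr1, the receptor for the chemokine XCL1 released by T and NK cells, gave 5.52, 5.72 and 5.71 in CD103-CD11b+ DCs and 11.03, 10.92 and 11.12 in CD103+CD11b- DCs. The arrays of each population lay close together, and the difference of -5.37 ± 0.17 was the largest of all genes (adjusted p = 1.4e-08, 41.4-fold lower). The list was drawn up with these results known, so its count describes the lineage and is no separate evidence for it.

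Endosomal and lysosomal members of the cDC1 list were among the lower genes. Naaa, an acid amidase of lysosomes, gave 8.89, 8.80 and 8.95 in CD103-CD11b+ DCs and 11.58, 11.68 and 11.80 in CD103+CD11b- DCs. Ppt1, a lysosomal thioesterase, gave 9.35, 9.40 and 9.36 in CD103-CD11b+ DCs and 11.89, 11.68 and 11.92 in CD103+CD11b- DCs. Both were well expressed in both populations and their groups stood far apart, with differences of -2.80 ± 0.09 and -2.46 ± 0.10 (adjusted p = 1.2e-08 and 5.7e-08). Rab7b, a small GTPase of late endosomes, differed by -4.19 ± 0.15, and Snx22, a sorting nexin, by -3.53 ± 0.24. The fatty acid and scavenger receptor Cd36 gave 6.23, 5.95 and 6.03 in CD103-CD11b+ DCs and 9.60, 9.24 and 9.40 in CD103+CD11b- DCs, a difference of -3.34 ± 0.16.

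Only 2 measured members of that list did not pass. Batf3, which cDC1 need to develop, gave 9.42, 9.18 and 9.44 in CD103-CD11b+ DCs and 9.54, 9.49 and 9.47 in CD103+CD11b- DCs, high signals on all arrays with a difference of -0.15 (adjusted p = 0.506 in limma). Wdfy4, which cDC1 need for cross-presentation, differed by -0.74, below the size that was asked for.

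Other strongly lower genes were G protein-coupled receptors, enzymes and a protease inhibitor. The orphan receptor gene Gpr141b gave 5.43, 5.12 and 5.69 in CD103-CD11b+ DCs and 10.02, 10.34 and 10.46 in CD103+CD11b- DCs, a difference of -4.86. Ctla2b, related to the propeptides of cathepsins, gave 5.73, 5.31 and 5.31 in CD103-CD11b+ DCs and 10.17, 9.73 and 10.64 in CD103+CD11b- DCs, a difference of -4.73. Cxcr3, the receptor for interferon-induced chemokines, gave 4.53, 5.09 and 4.54 in CD103-CD11b+ DCs and 8.27, 8.43 and 8.46 in CD103+CD11b- DCs. For these genes the CD103-CD11b+ signals were within 1 log2 unit of the median of all probesets on those arrays (4.80 to 4.86). The long-chain fatty acid receptor Ffar4 (-3.59), the lipid phosphatase Plpp1 (-3.85) and the phospholipid acyltransferase Agpat3 (-3.53) were also among the 15 lower genes with the largest differences.

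The genes highest in CD103-CD11b+ DCs included those of lectins, of inhibitory receptors and of a subunit of the phagocyte oxidase, Cybb. Of 18 measured cDC2 markers, 10 passed as higher and 1 as lower (2.02% and 1.30% of all genes), with a median difference of 2.01. Cd209a, a mouse relative of the human pathogen receptor DC-SIGN, gave 10.76, 10.63 and 10.56 in CD103-CD11b+ DCs and 5.99, 6.49 and 5.85 in CD103+CD11b- DCs. Mgl2, a lectin for galactose-type sugars, gave 9.11, 8.67 and 9.45 in CD103-CD11b+ DCs and 4.74, 4.62 and 4.88 in CD103+CD11b- DCs. Both were more than 4 log2 units higher, by 4.54 ± 0.14 and 4.33 ± 0.16 (adjusted p = 1.3e-08 and 3.6e-08). Cybb, the catalytic subunit of the phagocyte NADPH oxidase, gave 10.21, 10.20 and 10.09 in CD103-CD11b+ DCs and 5.48, 6.58 and 5.67 in CD103+CD11b- DCs, a difference of 4.26. Ltb, which encodes lymphotoxin β, differed by 1.48 ± 0.15.

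The member of the cDC2 list that passed as lower was Clec12a, an inhibitory lectin receptor for uric acid crystals. It gave 7.29, 7.01 and 7.81 in CD103-CD11b+ DCs and 8.76, 8.87 and 9.03 in CD103+CD11b- DCs (difference -1.51, adjusted p = 1.4e-04). Several genes known to act in cDC2 development did not pass. Klf4 differed by 0.28 (adjusted p = 0.352), Notch2 by 0.14 (adjusted p = 0.423) and Rbpj by -0.35 (adjusted p = 0.0401), and the adhesion molecule Esam by -0.61. The other members that did not pass, Relb (0.87), Ccr6 (0.78) and Cd4 (0.46), had positive differences and missed the size threshold alone.

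Among 33 measured DC transcription factors, 5 passed as higher, 2 as lower and 26 did not pass, and the median difference was 0.28. The shares over all genes were 2.02% higher and 1.30% lower. Irf4 gave 8.79, 8.70 and 8.75 in CD103-CD11b+ DCs and 5.79, 6.35 and 6.01 in CD103+CD11b- DCs. Irf8 gave 7.72, 7.96 and 7.89 in CD103-CD11b+ DCs and 11.52, 11.33 and 11.76 in CD103+CD11b- DCs. Both genes were therefore well above the lower end of the scale in both populations, with opposite differences of 2.70 ± 0.14 and -3.68 ± 0.17 (adjusted p = 2.8e-07 and 1.3e-07). Zeb2, a zinc finger repressor, gave 7.57, 7.51 and 7.59 in CD103-CD11b+ DCs and 4.61, 4.68 and 5.09 in CD103+CD11b- DCs (difference 2.77). Id2, an inhibitor of E proteins, gave 8.45, 8.61 and 8.92 in CD103-CD11b+ DCs and 10.06, 10.07 and 10.12 in CD103+CD11b- DCs (difference -1.42 ± 0.12).

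The other factors that passed differed by smaller amounts. Cebpa, a factor of myeloid differentiation, was higher by 1.23 ± 0.13 and Bcl11a by 1.09 ± 0.10. Runx3 was higher by 1.0 ± 0.10, at the size threshold, and did not pass when CD103-CD11b+ replicate 2 or CD103+CD11b- replicate 2 or 3 was left out. Spi1, which encodes PU.1 (0.23, adjusted p = 0.165), and Zbtb46, a factor of conventional DCs (-0.08, adjusted p = 0.769), did not pass.

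**Figure D2:**
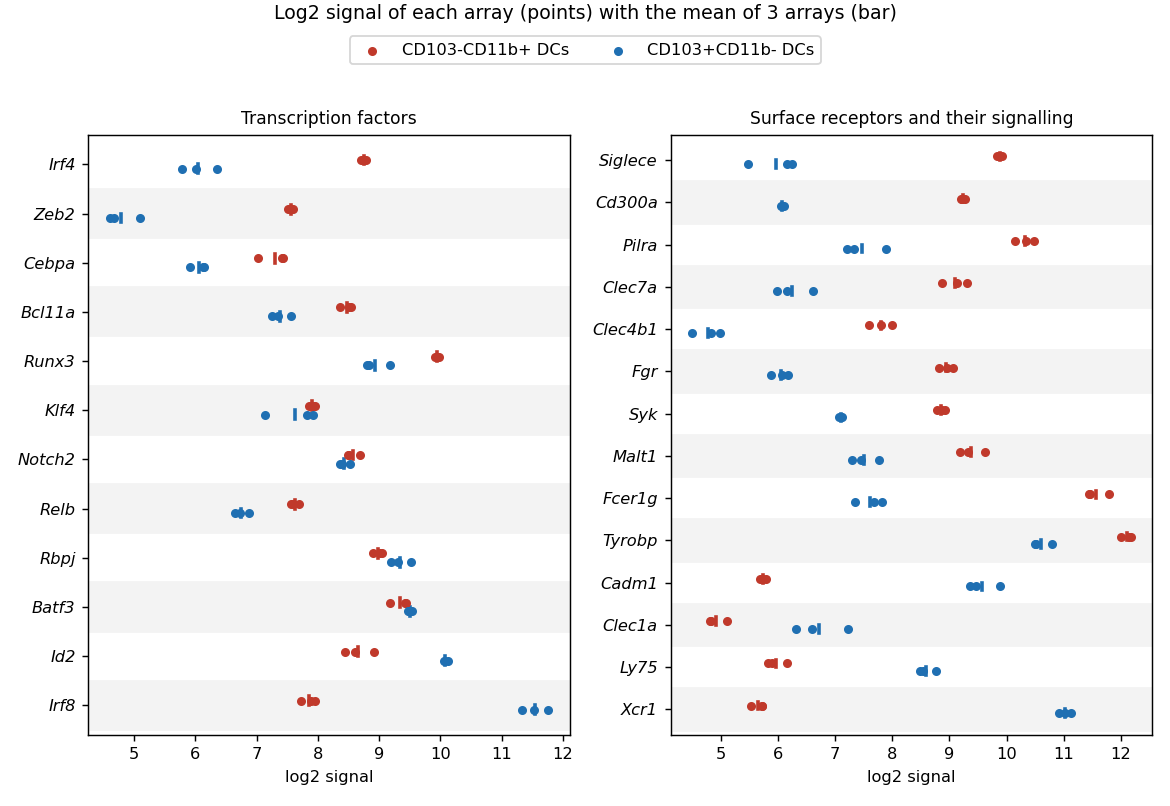
Log2 signal of each array (points) and the mean of 3 arrays (bars) in CD103-CD11b+ DCs (red) and CD103+CD11b- DCs (blue), for transcription factors (left) and surface receptors with their signalling proteins (right). The groups of Irf4, Zeb2 and Irf8 are more than 2 log2 units apart with opposite order for Irf8, those of Klf4 overlap, those of Batf3 lie close together, and the points of Siglece, Cd300a and Clec7a lie far to the right in CD103-CD11b+ DCs.

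Paired receptors of the immunoglobulin superfamily carry inhibitory motifs or pair with activating adaptors. Of 29 measured, 15 passed as higher in CD103-CD11b+ DCs, none as lower and 14 did not pass (median difference 1.35), against 2.02% of all genes. Siglece, an inhibitory receptor for sialic acids, gave 9.89, 9.83 and 9.92 in CD103-CD11b+ DCs and 5.48, 6.15 and 6.24 in CD103+CD11b- DCs. Cd300a, an inhibitory receptor for phospholipids, gave 9.21, 9.22 and 9.27 in CD103-CD11b+ DCs and 6.06, 6.11 and 6.05 in CD103+CD11b- DCs. The arrays of Cd300a were tight in both populations, those of Siglece only in CD103-CD11b+ DCs. The differences were 3.93 ± 0.18 for Siglece and 3.16 ± 0.08 for Cd300a (limma adjusted p = 1.3e-07 and 2.9e-09). Pilra, the inhibitory member of a receptor pair, gave 10.48, 10.14 and 10.34 in CD103-CD11b+ DCs and 7.33, 7.89 and 7.21 in CD103+CD11b- DCs, and the collagen receptor Lair1 differed by 2.65 ± 0.15. Trem1, which signals through the adaptor DAP12, differed by 2.40 ± 0.16. Treml4 (-0.74) was the member of the list with a difference below 0, and its size kept it from passing.

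Of 22 measured Fc receptor and ITAM genes, which include the signalling chain below such receptors, 8 passed as higher, none as lower and 14 did not pass (median difference 0.78). Of all genes, 2.02% passed as higher and 1.30% as lower. Syk, the kinase that binds phosphorylated ITAMs, gave 8.92, 8.87 and 8.78 in CD103-CD11b+ DCs and 7.12, 7.10 and 7.07 in CD103+CD11b- DCs. The Src-family kinase Fgr was higher by 2.90 ± 0.11, the paracaspase Malt1 by 1.88 ± 0.15 and Tyrobp, which encodes DAP12, by 1.5 ± 0.09. The Fc receptors Fcgr3 and Fcgr2b were higher by 2.31 and 1.91. Ptpn6, the phosphatase SHP-1 that inhibitory motifs recruit, differed by 0.80 and did not reach the size threshold, and Plcg2 differed by 0.03 (adjusted p = 0.835).

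C-type lectins passed in both directions. Of 35 measured, 18 were higher in CD103-CD11b+ DCs and 4 were lower (median difference 1.08), against 2.02% and 1.30% of all genes. Clec7a, which encodes the β-glucan receptor dectin-1, gave 9.30, 8.87 and 9.14 in CD103-CD11b+ DCs and 6.61, 5.98 and 6.16 in CD103+CD11b- DCs (difference 2.85 ± 0.16, adjusted p = 4.4e-07). Clec4b1 (3.03 ± 0.13) and Clec4a2 (2.99 ± 0.11), of the cluster that also holds dectin-2, were higher by a similar amount. In the other direction Ly75, the endocytic receptor DEC-205, gave 6.15, 5.90 and 5.83 in CD103-CD11b+ DCs and 8.76, 8.48 and 8.54 in CD103+CD11b- DCs (difference -2.64), and Clec1a differed by -1.80 ± 0.19. Clec and Cd209 genes, like the Siglec, Oas, Gbp, Ifitm and Ctla2 families, have close relatives whose RNA could reach each other's probes, so values of single members carry that uncertainty.

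Among 21 measured Toll-like receptors (TLRs) and cofactors, sensors of microbial products, 6 passed as higher, 2, Tlr3 and Tlr12, as lower, and 13 did not pass. The shares over all genes were 2.02% higher and 1.30% lower. Tlr2, a receptor for lipoproteins, gave 7.12, 7.51 and 7.18 in CD103-CD11b+ DCs and 5.35, 5.45 and 5.43 in CD103+CD11b- DCs, and its partner Tlr1 differed by 1.69 ± 0.21. Ticam2, an adaptor of TLR4, differed by 1.75 ± 0.17 and the kinase gene Irak2 by 1.18 ± 0.10. Unc93b1, which carries endosomal TLRs to their compartment (-0.21, adjusted p = 0.159), and Tlr9 (-0.26, adjusted p = 0.388) did not pass.

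Among 25 measured cytosolic sensors and inflammasome genes, 8 passed as higher and none as lower (median difference 0.50), against 2.02% and 1.30% of all genes. Mefv, which encodes the inflammasome sensor pyrin, gave 8.26, 7.92 and 7.81 in CD103-CD11b+ DCs and 5.08, 5.26 and 5.08 in CD103+CD11b- DCs, a difference of 2.86 ± 0.13 (adjusted p = 1.3e-07). Nod1, a sensor of peptidoglycan fragments, was higher by 2.10 ± 0.13. Nlrp3 (1.93 ± 0.23), Ddx58, which encodes the RNA sensor RIG-I (1.88 ± 0.09), and Casp4 (1.60 ± 0.16), the caspase that senses intracellular lipopolysaccharide, also passed. The adaptor gene Pycard differed by 0.45 and the DNA sensor gene Aim2 by 0.19 (adjusted p = 0.0319 and 0.281), and neither passed.

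Interferon-stimulated genes were more often higher. Of 28 measured, 10 passed as higher and 1 as lower (median difference 0.63), against 2.02% and 1.30% of all genes. Oas1a, which makes the activator of RNase L, gave 7.61, 7.21 and 8.08 in CD103-CD11b+ DCs and 5.05, 5.44 and 5.37 in CD103+CD11b- DCs. Gbp3, a guanylate-binding protein gene, gave 7.66, 7.52 and 7.69 in CD103-CD11b+ DCs and 4.97, 5.63 and 5.39 in CD103+CD11b- DCs. The differences were 2.35 ± 0.18 and 2.29 ± 0.14. The lower member was Ifi205, of the interferon-inducible HIN-200 family, with 8.59, 8.27 and 8.64 in CD103-CD11b+ DCs and 11.19, 10.91 and 11.28 in CD103+CD11b- DCs (difference -2.63 ± 0.20), and 2 members passed as lower without CD103-CD11b+ replicate 3 or CD103+CD11b- replicate 1. The list was not uniform. At an unadjusted p under 0.05 (limma), 17 members were higher and 8 lower, with Ifi35 (-0.51) among the lower ones that did not pass.

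Cytokine and chemokine genes separated the populations in both directions. Of 27 measured cytokines and soluble inhibitors, 8 passed as higher and 3 as lower (median difference 0.17), against 2.02% and 1.30% of all genes. Osm, which encodes oncostatin M, gave 5.41, 5.59 and 5.53 in CD103-CD11b+ DCs and 3.76, 3.83 and 3.75 in CD103+CD11b- DCs. Il1rn, the receptor antagonist of IL-1, differed by 1.65 ± 0.12. Lif, a cytokine of the same family as oncostatin M, went the other way, with 6.24, 6.60 and 6.73 in CD103-CD11b+ DCs and 8.43, 9.41 and 9.14 in CD103+CD11b- DCs (difference -2.47 ± 0.24, adjusted p = 3.4e-05). Il15, a cytokine for NK cells and memory CD8 T cells, differed by -1.38 ± 0.18. Tnf gave a difference of -0.01 (adjusted p = 0.989).

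Of 38 measured growth factor and cytokine receptors, 9 passed as higher and none as lower, against 2.02% and 1.30% of all genes. With an unadjusted p under 0.05 (limma), 22 were higher and 4 lower. Il1r2, a decoy receptor that binds IL-1 without signalling, gave 11.45, 11.92 and 11.50 in CD103-CD11b+ DCs and 7.27, 9.05 and 8.27 in CD103+CD11b- DCs. The CD103+CD11b- arrays were spread over nearly 2 log2 units, and all lay below those of CD103-CD11b+ DCs (difference 3.43 ± 0.34, adjusted p = 3.7e-05). Il17ra differed by 2.01 ± 0.16 and Il21r by 1.99 ± 0.15. Csf2ra, a subunit of the GM-CSF receptor, differed by -0.11 (adjusted p = 0.63). Csf2rb, another subunit of that receptor, differed by 0.92 (adjusted p = 1.5e-04) and missed the size threshold alone. Ifngr1 (-0.68) and the growth factor receptor gene Flt3 (-0.62, limma adjusted p = 0.00111) were lower by amounts below the size threshold.

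Among 36 measured chemokines and their receptors, 12 passed as higher and 4 as lower, against 2.02% and 1.30% of all genes. The inflammatory chemokine Ccl3 gave 11.38, 11.56 and 11.50 in CD103-CD11b+ DCs and 7.82, 9.54 and 8.82 in CD103+CD11b- DCs (difference 2.75 ± 0.32), and Ccl4 differed by 1.47 ± 0.18. Ccrl2, a receptor that binds chemerin without signalling, differed by 2.56 ± 0.13. Cxcl9, a ligand of CXCR3, was lower in CD103-CD11b+ DCs, with 9.56, 9.53 and 10.13 there and 11.14, 10.99 and 11.23 in CD103+CD11b- DCs (difference -1.38 ± 0.20). Of the costimulators and coinhibitors, 6 of 29 passed as higher and 2 as lower, among them Cd274, which encodes the coinhibitor PD-L1 (1.43 ± 0.14), and Cd200 (-1.61 ± 0.11). Cd86 differed by -0.85, below the size threshold.

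Genes of lipid mediators were more often higher, with 10 of 28 measured passing as higher and 2 as lower (median difference 0.25, and 1 lower when any of the 6 arrays but CD103-CD11b+ replicate 1 was left out). The shares over all genes were 2.02% higher and 1.30% lower. Ptgs2, the inducible cyclooxygenase of prostaglandin synthesis, gave 11.76, 11.89 and 11.65 in CD103-CD11b+ DCs and 8.0, 8.96 and 7.98 in CD103+CD11b- DCs (difference 3.45 ± 0.22, adjusted p = 1.2e-06). Hpgd, which inactivates prostaglandins, was higher as well, with 9.15, 8.56 and 8.81 in CD103-CD11b+ DCs and 6.02, 6.28 and 6.42 in CD103+CD11b- DCs. The prostaglandin E2 receptor genes differed in opposite directions, Ptger4 by 1.73 ± 0.18 and Ptger2 by -1.47 ± 0.15. Pla2g4a, the phospholipase that releases arachidonic acid, was higher by 1.68 ± 0.12 and Alox5, which begins leukotriene synthesis, by 1.53 ± 0.18. Alox5ap, its partner protein, differed by 0.30 (adjusted p = 0.0726).

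Of 14 measured genes of antigen presentation by MHC class II, Lgmn, which encodes the lysosomal protease legumain, passed as higher (8.64, 9.07 and 8.95 in CD103-CD11b+ DCs and 6.89, 6.95 and 6.84 in CD103+CD11b- DCs), and the median difference was 0.07. Of all genes, 2.02% passed as higher. H2-Ab1 (-0.01, adjusted p = 0.943), H2-Aa (0.08) and the invariant chain gene Cd74 (-0.02) did not pass. The protease genes Ctss (0.95, adjusted p = 4.5e-04) and Ctsl (0.87, adjusted p = 0.0046) and the thiol reductase gene Ifi30 (0.77, adjusted p = 7.0e-05) missed the size threshold alone. The count of 1 was 3, with Ctss and Ctsl, without CD103+CD11b- replicate 2 or without both arrays rich in acinar RNA, and 2, with Ctss, without CD103+CD11b- replicate 3. Among 26 measured genes of the class I and cross-presentation list, Cybb passed as higher and Rab43 (-1.11 ± 0.11), a GTPase of cross-presentation in cDC1, as lower (2 members without both arrays rich in acinar RNA). In either direction 3.32% of all genes passed. The peptide transporters Tap1 (-0.89) and Tap2 (-0.85) and the immunoproteasome subunit Psmb9 (-0.53) differed by amounts below the size threshold, except Tap1 (-1.08) without both arrays rich in acinar RNA. Of 21 lysosomal proteases and cystatins, 7 passed as higher, among them Ctsc (1.5 ± 0.12) and Ctsd (1.38 ± 0.16), whereas Psap (-0.82) and Cst3 (-0.51) had differences of the other sign below the size threshold.

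Retinoic acid and TGFβ direct the imprinting of gut immune cells. Of 23 measured retinoid genes, 1 passed as higher and 2 as lower (median difference -0.04), where 3.32% of all genes passed in either direction. Cyp26b1, which degrades retinoic acid, gave 4.69, 5.13 and 4.89 in CD103-CD11b+ DCs and 7.07, 7.13 and 7.49 in CD103+CD11b- DCs (difference -2.33 ± 0.14, adjusted p = 6.1e-07). Dhrs3, which reduces retinal, was higher by 1.18 ± 0.10 and Dhrs9, which oxidizes retinol, differed by -1.40 ± 0.10. Aldh1a2, which makes retinoic acid in intestinal DCs, gave 7.42, 7.27 and 7.17 in CD103-CD11b+ DCs and 8.04, 7.90 and 7.97 in CD103+CD11b- DCs. Its difference of -0.69 (adjusted p = 2.2e-04) was below the size threshold.

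Of 31 measured genes of the TGFβ pathway, 1 passed in each direction, Tgfbi (1.48 ± 0.19), an extracellular matrix protein induced by TGFβ, and Acvrl1 (-1.48 ± 0.15), the type I receptor ALK1. Acvrl1 gave 7.22, 7.67 and 7.83 in CD103-CD11b+ DCs and 9.03, 9.06 and 9.07 in CD103+CD11b- DCs. Tgfbr2 differed by 0.30 (adjusted p = 0.161) and Tgfb1 by 0.40 (adjusted p = 0.0142). Smad7 (0.92, adjusted p = 0.00141) missed the size threshold alone. At an unadjusted p under 0.05 (limma), 13 members were higher and 5 lower. Of all genes, 3.32% passed in either direction. Without CD103+CD11b- replicate 2 the count of members that passed as higher was 2. Of 26 measured integrins, Itgam and Itga9 were higher and 4 were lower, namely Itgae and the collagen, laminin and matrix receptor chains Itga1 (-1.74 ± 0.13), Itga3 (-1.92 ± 0.16) and Itga8 (-1.73 ± 0.12). Itga9 did not pass without CD103-CD11b+ replicate 1.

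**Figure D3:**
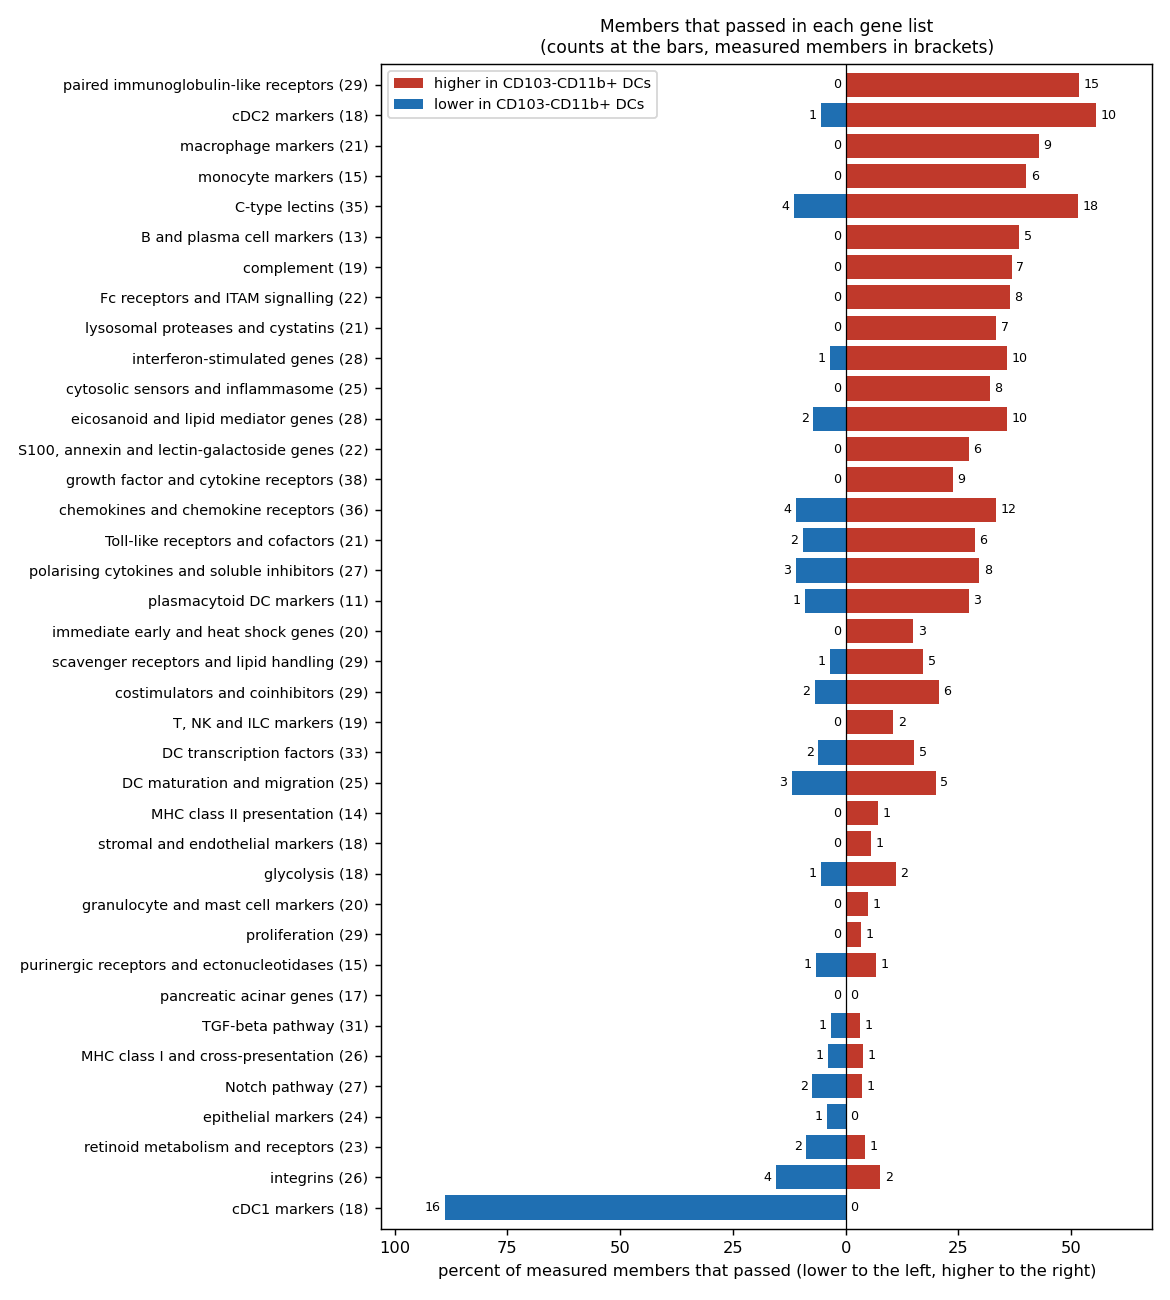
Percent of the measured members of each gene list that passed as higher (red, to the right) or lower (blue, to the left) in CD103-CD11b+ DCs relative to CD103+CD11b- DCs, with counts at the bars and the number measured in brackets. In the cDC1 list 16 of 18 members passed as lower, in the paired receptor list 15 of 29 and in the C-type lectin list 18 of 35 passed as higher, and in the MHC class II list 1 of 14 did.

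Genes known from mφ separated the populations, although both were sorted as CD64-, and had higher signals in CD103-CD11b+ DCs. Of 21 measured mφ markers, 9 passed as higher and none as lower, against 2.02% and 1.30% of all genes. The mean log2 signal over the list was 7.04, 6.80 and 7.05 in CD103-CD11b+ DCs and 5.51, 5.59 and 5.61 in CD103+CD11b- DCs, and 9.78 to 9.98 in mφ. C1qb, a subunit of complement C1q, gave 9.07, 8.68 and 9.13 in CD103-CD11b+ DCs and 4.82, 4.72 and 5.36 in CD103+CD11b- DCs, with a mean of 11.89 in mφ. Csf1r, the receptor for macrophage colony-stimulating factor, gave 8.92, 8.30 and 8.89 in CD103-CD11b+ DCs and 4.79, 5.28 and 5.18 in CD103+CD11b- DCs, with a mean of 11.71 in mφ. The differences were 3.99 ± 0.28 and 3.62 ± 0.19, and for Apoe (2.52) and the mannose receptor gene Mrc1 (2.31) the mean in CD103-CD11b+ DCs was likewise below that in mφ.

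Some defining mφ genes had signals near or below the median of all probesets (4.80 to 4.86) in CD103-CD11b+ DCs. Fcgr1, which encodes CD64, gave 4.80, 4.59 and 5.02 in CD103-CD11b+ DCs, with a mean of 8.92 in mφ. Since CD64 was used to sort DCs from mφ, this gap describes the sort. The difference of Fcgr1 from CD103+CD11b- DCs (0.97) did not pass the size threshold, except without CD103-CD11b+ replicate 2 (1.08) or CD103+CD11b- replicate 1 (1.02). Mertk (4.10, 4.11 and 4.40) and Siglec1 (4.37, 4.47 and 4.25) did not pass either, with means of 7.52 and 9.03 in mφ. Cd68 gave 10.99, 11.02 and 11.09 in CD103-CD11b+ DCs, with a mean of 11.51 in mφ, and differed from CD103+CD11b- DCs by 0.05 (adjusted p = 0.692). Of the 403 higher genes, 234 had a mean in mφ at or above that in CD103-CD11b+ DCs. Of the 259 lower genes, 26 had a mean in mφ at or above that in CD103+CD11b- DCs. Both sets were chosen by their difference between the DC populations, and the share over all genes was not counted. These counts therefore describe the genes that passed and show no likeness to mφ beyond other genes. In bulk samples, fewer cells of a type and less RNA per cell cannot be told apart, and the part of mφ RNA in these differences was not tested.

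Other higher genes were lower in mφ than in CD103-CD11b+ DCs. S100a4, a calcium-binding protein of the monocyte list, gave 10.36, 10.29 and 10.76 in CD103-CD11b+ DCs and 6.28, 7.19 and 6.34 in CD103+CD11b- DCs, with a mean of 6.85 in mφ. S100a6 gave 11.97, 11.51 and 11.82 in CD103-CD11b+ DCs and 8.47, 9.59 and 9.0 in CD103+CD11b- DCs, with a mean of 8.98 in mφ. Klrd1, which encodes the NK receptor subunit CD94, gave 10.75, 10.70 and 11.06 in CD103-CD11b+ DCs and 7.95, 8.44 and 8.14 in CD103+CD11b- DCs, with a mean of 6.0 in mφ. In all 3 the CD103-CD11b+ arrays were the highest of these 3 populations. Il22ra2, the soluble inhibitor of IL-22, gave 9.82, 9.01 and 8.71 in CD103-CD11b+ DCs and 5.15, 6.66 and 6.07 in CD103+CD11b- DCs (difference 3.22 ± 0.34), with a mean of 4.33 in mφ. Of 15 measured monocyte markers 6 passed as higher and none as lower, against 2.02% and 1.30% of all genes. Among the 6 were Ms4a4c (3.61 ± 0.26) and Ccr2 (1.35 ± 0.26). Ccr2 did not pass when CD103-CD11b+ replicate 1 or 3 or CD103+CD11b- replicate 1 or 2 was left out.

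**Figure D4:**
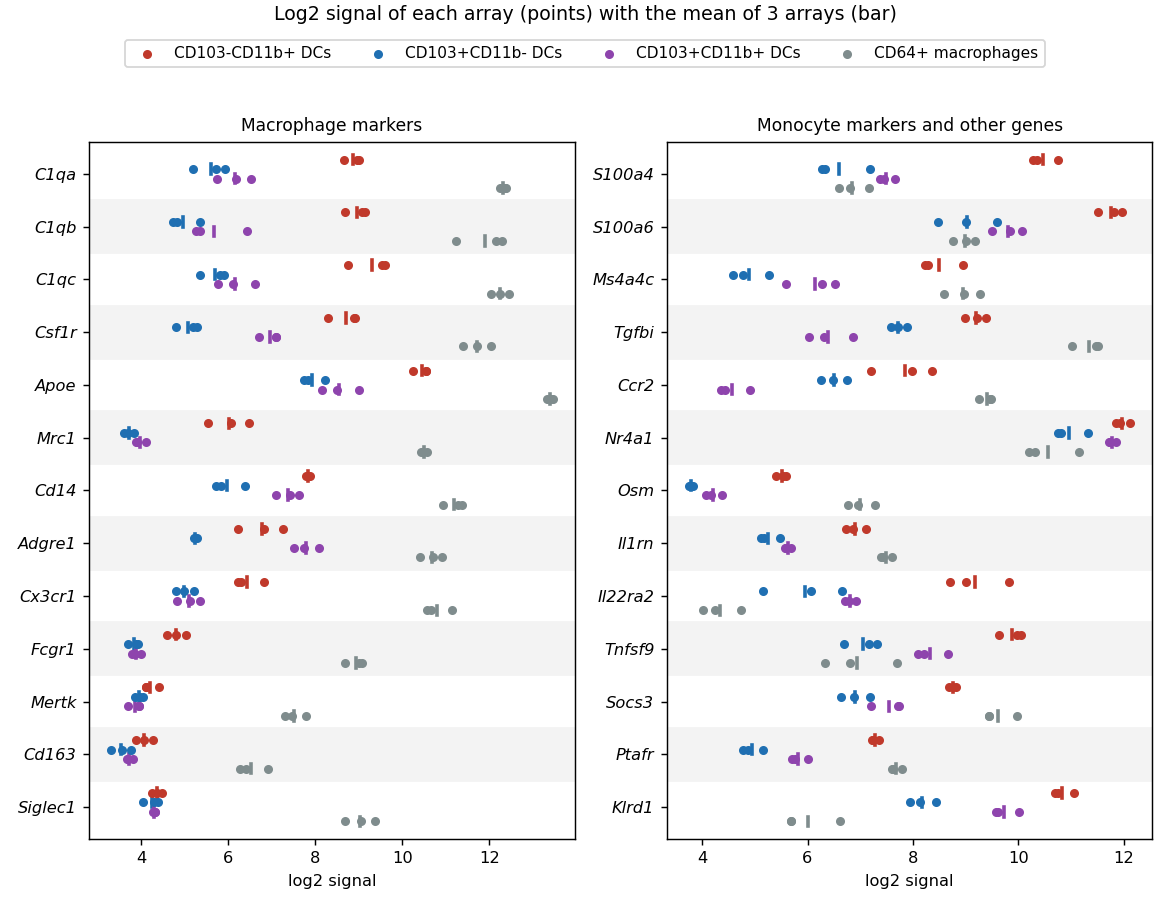
Log2 signal of each array (points) and the mean of 3 arrays (bars) in CD103-CD11b+ DCs (red), CD103+CD11b- DCs (blue), CD103+CD11b+ DCs (purple) and CD64+ mφ (grey). C1qb and Csf1r of CD103-CD11b+ DCs lie between CD103+CD11b- DCs and mφ, Mertk and Siglec1 lie with the other DCs, and S100a4, S100a6 and Il22ra2 are highest in CD103-CD11b+ DCs.

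To ask which of the differences also set CD103-CD11b+ DCs apart from the other CD11b+ population, they were compared with CD103+CD11b+ DCs in the same fit. That comparison called 61 genes (0.306%) as higher and 46 (0.231%) as lower. It shares the CD103-CD11b+ arrays with the comparison above, so the calls are given side by side with no test of their overlap. Of the 403 genes higher than in CD103+CD11b- DCs, 45 were also higher than in CD103+CD11b+ DCs, 6 were lower and 352 had no call. Of the 259 lower genes, 12 were also lower than in CD103+CD11b+ DCs, 1 was higher and 246 had no call. These 64 genes with a call in both comparisons became 38 without CD103-CD11b+ replicate 3, 42 without CD103+CD11b+ replicate 1 and 33 without CD103-CD11b+ replicate 3 and CD103+CD11b- replicate 2. A fit with a replicate block gave 78. Acinar genes were also high on CD103+CD11b+ replicates 2 (mean log2 signal 7.48) and 3 (6.73), with 5.33 on replicate 1, and those arrays stayed in this comparison.

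The 6 genes that were higher than in CD103+CD11b- DCs and lower than in CD103+CD11b+ DCs were Cd101, Trem1, Cd209b, Cd209c, Clec4a4 and Adgrl3. Cd101, an immunoglobulin-family receptor, gave 7.96, 7.93 and 7.98 in CD103-CD11b+ DCs and 4.49, 4.57 and 4.76 in CD103+CD11b- DCs, with a mean of 9.20 in CD103+CD11b+ DCs. The gene with the reverse pattern was Ifi205, with a mean of 7.25 in CD103+CD11b+ DCs. Ly75 was among the 12 lower than in both, with a mean of 7.12 in CD103+CD11b+ DCs. Il22ra2 (mean 6.81 in CD103+CD11b+ DCs), Osm (4.21) and S100a4 (7.50) were among the 45 higher than in both.

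Markers of cells other than DCs were followed on each array. B and plasma cell markers gave means over 13 genes of 6.97, 6.37 and 6.55 in CD103-CD11b+ DCs and 5.89, 5.86 and 5.87 in CD103+CD11b- DCs, and 5 passed as higher, with the largest difference for Mzb1 (1.93 ± 0.25), a protein of antibody-secreting cells. That count was 2 without CD103+CD11b- replicate 2 or 3, 3 without CD103-CD11b+ replicate 1 or 3, and 1 without both arrays rich in acinar RNA. The B cell genes Ms4a1 (3.65, 3.80 and 3.71 in CD103-CD11b+ DCs) and Pax5 (4.39, 4.46 and 4.52) were below the median of all probesets, 4.80 to 4.86. Epithelial markers were on average lower, with means over 24 genes of 6.76, 6.49 and 6.74 in CD103-CD11b+ DCs and 7.32, 7.15 and 7.55 in CD103+CD11b- DCs, and 1 of them passed as lower, a count that ran from 0 to 4 with single arrays left out. Of all genes, 2.02% passed as higher and 1.30% as lower. The median difference over the epithelial list was -0.74, and 19 members were lower and 2 higher at an unadjusted p under 0.05 (limma). Immediate early and heat shock genes, which respond to tissue digestion, gave means over 20 genes of 10.41, 10.51 and 10.44 in CD103-CD11b+ DCs and 9.63, 10.09 and 9.94 in CD103+CD11b- DCs, groups that did not overlap, and 3 passed as higher (1 without CD103+CD11b- replicate 1 and 6 without CD103+CD11b- replicate 2). The part of these shifts in the differences above, among them those of Ptgs2, Ccl3 and Nlrp3, which inflammatory stimuli induce, was not tested.

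**Figure D5:**
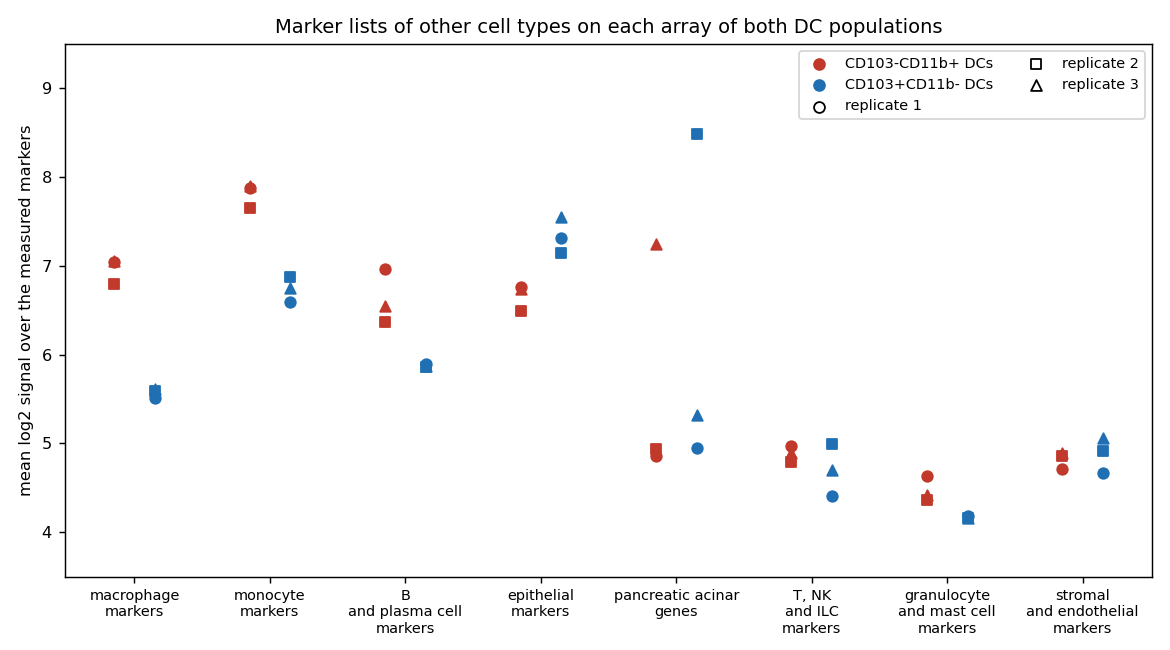
Mean log2 signal over the measured markers of other cell types on each array of CD103-CD11b+ DCs (red) and CD103+CD11b- DCs (blue), with replicates 1, 2 and 3 as circles, squares and triangles. Acinar genes are high on CD103-CD11b+ replicate 3 (7.25) and CD103+CD11b- replicate 2 (8.49), mφ, monocyte and B and plasma cell markers lie higher in CD103-CD11b+ DCs, and epithelial markers lie lower.

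The promoters of the genes were read for the letters that IRF and partner factors are known to bind, since Irf4 and Irf8 differed in opposite directions. Each promoter ran from 250 bases before to 50 bases after the start of a RefSeq gene (GRCm38.p6), and was found for 308 of the 403 higher genes, 209 of the 259 lower genes and 15614 of all genes measured. Motifs were searched on both strands, and a gene with several promoters counted as a holder if any of them matched. Several promoters were present for 4163 of the 27025 genes with a promoter, so the shares are of genes and not of promoters. The pair of IRF half-sites (GAAA, any 2 bases and GAAA again) was present in 35 of the 308 (11.4%) and 9 of the 209 (4.31%), against 607 of all 15614 (3.89%). The ETS-IRF letters (GGAA, any 2 bases and GAAA) were present in 16 (5.19%) and 4 (1.91%), against 465 (2.98%). The core letters of PU.1, GAGGAAGT, were present in 30 (9.74%) and 11 (5.26%), against 506 (3.24%), and those of AP-1, TGANTCA, in 36 (11.7%) and 23 of the 209, against 1262 (8.08%). The first pair of motifs can overlap at shared letters, related genes share promoter sequence, and no test was made of these shares.

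Interferon-stimulated genes made up some of the holders of the IRF pair among the higher genes, Oas1a, Gbp3, Ifit3, Ifitm2 and Ddx58 among them, and Ifi205 and Itga3 were among the holders that were lower. The 2 genes with the largest differences in each direction whose promoter held either IRF motif are shown, 5′ to 3′ on the strand of the gene, with the motif letters (on either strand) in capitals. They are Cd209a (chr8:3748935-3749234, minus strand) and Cybb (chrX:9469275-9469574, minus strand), higher in CD103-CD11b+ DCs, and Gpr141b (chr13:19732902-19733201, minus strand) and Gpr33 (chr12:52028014-52028313, minus strand), lower in CD103-CD11b+ DCs.
Cd209a: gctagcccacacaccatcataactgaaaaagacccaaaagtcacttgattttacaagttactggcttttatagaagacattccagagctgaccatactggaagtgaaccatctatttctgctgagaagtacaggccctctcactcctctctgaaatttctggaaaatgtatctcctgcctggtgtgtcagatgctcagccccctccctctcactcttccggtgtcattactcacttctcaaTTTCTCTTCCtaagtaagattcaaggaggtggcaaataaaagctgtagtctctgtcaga
Cybb: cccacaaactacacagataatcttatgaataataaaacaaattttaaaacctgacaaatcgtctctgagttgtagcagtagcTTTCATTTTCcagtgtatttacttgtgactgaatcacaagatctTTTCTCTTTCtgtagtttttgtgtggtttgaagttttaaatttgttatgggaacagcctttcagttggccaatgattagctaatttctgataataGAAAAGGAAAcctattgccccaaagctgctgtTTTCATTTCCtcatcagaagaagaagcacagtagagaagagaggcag
Gpr141b: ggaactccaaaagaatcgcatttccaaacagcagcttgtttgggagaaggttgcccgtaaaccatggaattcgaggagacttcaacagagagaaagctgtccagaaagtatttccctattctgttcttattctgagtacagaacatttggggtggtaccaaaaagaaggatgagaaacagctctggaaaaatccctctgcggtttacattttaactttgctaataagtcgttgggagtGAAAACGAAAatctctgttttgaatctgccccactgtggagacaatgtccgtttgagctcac
Gpr33: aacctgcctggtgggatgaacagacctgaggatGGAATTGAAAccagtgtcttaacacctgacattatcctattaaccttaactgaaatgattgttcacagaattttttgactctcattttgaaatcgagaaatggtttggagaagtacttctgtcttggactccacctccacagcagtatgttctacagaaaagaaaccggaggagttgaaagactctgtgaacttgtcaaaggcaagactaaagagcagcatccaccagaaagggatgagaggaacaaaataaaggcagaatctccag
In Cybb 3 IRF pairs and 1 ETS-IRF match were found, in Cd209a 1 ETS-IRF match, in Gpr141b 1 IRF pair and in Gpr33 1 ETS-IRF match. A match says that these letters are in the window and not that a factor binds there. The log2 signal of Gpr33, related to the receptors of chemoattractants, was 4.36, 4.63 and 4.73 in CD103-CD11b+ DCs and 8.99, 9.12 and 9.38 in CD103+CD11b- DCs.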

How the data were processed

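RNA of sorted cells (RNeasy Micro columns) was amplified (Ovation Pico), labelled with biotin and hybridized to Mouse Gene 1.0 ST arrays, 1 sample each. The deposited values are log2 signals that the authors made with Robust Multi-array Average, which corrects background, summarizes probes and makes array distributions alike by quantile normalization, so that a difference in total RNA between populations is no longer in them. The sources used here give no genome build for the arrays. Of 35556 probesets, 23410 were annotated to genes, 21789 to 1 symbol and 1621 to several, which were left out. Where a gene had several such probesets (999 genes), only that of the highest average signal across the 15 arrays was kept.

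Linear models (limma 3.58.1, lmFit and eBayes, R 4.3.3) were fitted to 9 arrays, those of both populations and of CD103+CD11b+ DCs, which share one estimate of the spread, without a replicate block, and p-values were adjusted over 19938 genes (Benjamini-Hochberg). Errors after ± are standard errors. Deviations from the group means of same-numbered CD103-CD11b+ and CD103+CD11b+ arrays correlated with r of 0.22, 0.13 and 0.17. For CD103+CD11b- and CD103+CD11b+ arrays r was 0.25, 0.35 and 0.28. Same-numbered arrays of these populations thus deviated alike, though the labels give no pairing. What they share was not tested, and a replicate block was kept as an alternative fit. A simulated data set with known changes was used to test the fit. The comparison and the 39 gene lists (796 measured genes) were chosen with earlier results of these data known, and 71 list entries were not analysed here, having no probeset of their own.

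Named were the sort genes, in each direction the 15 genes that differed most, per list up to 8 members that passed and 4 that did not, and any member of the cDC1, cDC2, transcription factor, mφ and monocyte lists. Adgrl3, Ccl4, Cd209b, Cd209c, Clec1a, Ctsl, Cxcl9, Ifi30, Il15, Klrd1, Ly75, Ms4a1, Pax5, Ptger2, Smad7, Tap1, Tap2 and Tgfbr2 fell outside that rule and were chosen after their values were seen. The alternatives were another summary of probesets, normalization, filter, fit, threshold or set of arrays. Promoters came from RefSeq (GRCm38.p6). Figures were drawn with matplotlib 3.10.9 (Python 3.11.15), from tables made with numpy 2.4.6 and pandas 2.3.3.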

Additional observations from a re-analysis of the deposited data

How the results depend on the processing

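Counts of higher and lower genes stayed within 1.5 times 403 and 259 under the other summary of probesets, both other normalizations, the filter on dim genes, the fits on 6 or 15 arrays, trended and weighted fits and the looser threshold. A test against a difference of 1 (limma's treat) left 147 higher and 81 lower genes, and 7 that also differed from CD103+CD11b+ DCs. The methods' t-test gave 417 and 273 genes at an unadjusted p under 0.05 and a difference over 1. After Benjamini-Hochberg adjustment at 0.01 it gave 43 and 47, and 91 of the 158 named genes that were followed lost their call. Leaving out 1 array at a time gave 372 to 411 higher and 232 to 276 lower genes. The 64 genes that also differed from CD103+CD11b+ DCs became 38 without CD103-CD11b+ replicate 3, 42 without CD103+CD11b+ replicate 1, up to 59 without another, and 33 without both arrays rich in acinar RNA. No named gene that passed changed its direction under any of these. Fitting all 15 arrays ended the calls of Cxcl9 (adjusted p = 0.0188), Itga9 (0.0159), Mzb1 (0.0123) and Tk1 (0.117), fitting the 6 arrays that of Ccr2 (0.0114), and repeated quantile normalization that of Itga9 (0.98 in size). The mean of probesets and array weights each ended the call of Tk1 (0.70 and 0.96 in size). Same-numbered arrays of the populations share only a number by the labels, with correlations of their deviations of 0.27, 0.01 and -0.04 for CD103-CD11b+ with CD103+CD11b- DCs, and a fit with a replicate block gave 417 higher and 278 lower genes and 78 that also differed from CD103+CD11b+ DCs, and ended no call of a named gene. The cause of these changes was not tested. With 3 arrays a population, small counts in a list moved most, and signals below the median of all probesets limit what can be seen of dim genes.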

Other observations

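Gene groups outside the results above showed the following. Of all genes, 2.02% passed as higher and 1.30% as lower. Of 19 measured complement genes, 7 passed as higher in CD103-CD11b+ DCs and none as lower, relative to CD103+CD11b- DCs (median difference 0.18). Besides the C1q subunits these included Cfp, which encodes properdin, with log2 signals of 10.39, 10.67 and 10.51 in CD103-CD11b+ DCs and 8.43, 8.72 and 8.64 in CD103+CD11b- DCs, and Cfb (1.49 ± 0.13), both of the alternative pathway. Of 29 measured genes for scavenger receptors and lipid handling, 5 passed as higher and 1, Cd36, as lower, against the same 2.02% and 1.30%. The fatty acid binding protein gene Fabp5 gave 8.20, 8.25 and 8.18 in CD103-CD11b+ DCs and 5.44, 5.88 and 6.05 in CD103+CD11b- DCs, a difference of 2.42 ± 0.13 (limma adjusted p = 3.9e-07). The scavenger receptor gene Msr1 (1.79 ± 0.21) and the oxysterol receptor gene Nr1h3 (1.29 ± 0.16) passed as well.

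The DC maturation list was split, with 5 of 25 members higher and 3 lower, against 2.02% and 1.30% of all genes. Tnfaip3, an inhibitor of NF-κB signalling, gave 9.32, 10.07 and 9.42 in CD103-CD11b+ DCs and 6.76, 8.17 and 7.74 in CD103+CD11b- DCs. Socs3, an inhibitor of cytokine signalling, differed by 1.85 ± 0.16 and the metalloprotease gene Adam8 by -1.83 ± 0.13. P2ry14, a receptor for UDP-sugars, gave 6.26, 5.66 and 5.44 in CD103-CD11b+ DCs and 8.39, 8.48 and 8.46 in CD103+CD11b- DCs, a difference of -2.66 ± 0.18. Among 29 proliferation genes 1 passed, a share near the 3.32% of all genes that passed in either direction. Mki67 gave 8.75, 9.06 and 9.25 in CD103-CD11b+ DCs and 8.96, 9.23 and 9.29 in CD103+CD11b- DCs, groups that overlapped (adjusted p = 0.6). The passing gene, Tk1, did not pass in 3 of the runs that left out a single array of these populations.

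CD103-CD11b- DCs, which enter no comparison here, gave 8.84, 8.30 and 8.95 for Xcr1 and 8.63, 7.99 and 8.63 for Cd209a, values that lay between those of CD103-CD11b+ and CD103+CD11b- DCs for both genes. For S100a4 they gave 10.71, 10.23 and 10.54, which overlapped with CD103-CD11b+ DCs.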
